A study of Mus musculus with 2 samples.

Results

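Immediate early genes are transcripts that cells switch on within minutes of a growth factor, stress or injury signal without first making new protein. The genes described here are 10 of them, namely Egr1, Egr2, Egr3, Nr4a1, Nr4a2, Nr4a3, Ier2, Ier3, Ier5 and Myc, out of 19946 genes that the arrays measured with a probe set naming a single gene. They are members of named gene families, listed with earlier results of these data known, and a gene with several probe sets was to be read from its brightest. Each of the 10 genes had 1 probe set, and no other probe set named it together with a second gene.

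The study asked how mouse embryonic fibroblasts, connective tissue cells cultured from embryos, respond to celastrol, a triterpenoid of the thunder god vine that reacts with thiols. All cells carried an adenovirus expressing LacZ, the bacterial beta-galactosidase gene, often chosen as an inert cargo, and were kept in DMEM with 1% FBS for 7 h. The DMSO group received the solvent and the Celastrol group 250 nM of the compound. Each group was 1 array, so nothing here has a replicate, no p-value or error can be given, and an effect of treatment cannot be told apart from one of culture or array. Not given in the sources used here are the strain and genotype of the embryos, the passage of the cells and whether the arrays came from separate cultures.

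EGR1, EGR2 and EGR3 are zinc finger transcription factors that bind GC-rich sites and are induced through MAP kinases and serum response factor. NR4A1 (Nur77), NR4A2 (Nurr1) and NR4A3 (Nor1) are orphan nuclear receptors whose genes respond strongly to cyclic AMP and calcium. IER2 and IER5 are related nuclear proteins that bind the phosphatase PP2A, IER3 (IEX-1) is a survival factor known as an NF-kB target, and MYC is a growth-promoting transcription factor that acts as a dimer with MAX. In resting fibroblasts given serum, these transcripts classically rise early and decay fast, since many are short-lived.

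Promoter windows were printed for 4 Egr, Nr4a and Ier genes, so that the known signal elements can be set beside the values that follow. No window was matched for Egr1, Egr3, Ier2 or Myc. RefSeq windows of the GRCm38.p6 build, from 250 bases before to 50 after an annotated start, were matched by symbol for 6 of the 10 genes, Egr2, Nr4a1, Nr4a2, Nr4a3, Ier3 and Ier5. Only the 250 bases before the start are shown, 5′ to 3′ on the gene's strand, which is the plus strand for all 4 genes. Egr2 (chr10:67537619-67537868) has a CArG box, the letters that serum response factor binds, and 2 CRE cores, all in capitals. CRE cores are TGACG or its reverse complement CGTCA, letters that CREB proteins bind. Nr4a1 (chr15:101266596-101266845) and Nr4a3 (chr4:48045055-48045304) have their CRE cores in capitals. Ier3 (chr17:35821463-35821712) has an NF-kB site in capitals. The motifs in capitals were chosen for each gene, and other matches are not marked. Of the 5 Egr2 windows, the first holding both of its motifs is shown, and the windows of Nr4a2 and Ier5 are not.
Egr2: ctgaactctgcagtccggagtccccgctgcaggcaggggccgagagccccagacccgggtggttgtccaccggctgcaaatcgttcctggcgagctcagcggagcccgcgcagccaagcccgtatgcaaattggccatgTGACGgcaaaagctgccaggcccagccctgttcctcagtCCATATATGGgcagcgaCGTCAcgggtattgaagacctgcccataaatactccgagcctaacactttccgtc
Nr4a1: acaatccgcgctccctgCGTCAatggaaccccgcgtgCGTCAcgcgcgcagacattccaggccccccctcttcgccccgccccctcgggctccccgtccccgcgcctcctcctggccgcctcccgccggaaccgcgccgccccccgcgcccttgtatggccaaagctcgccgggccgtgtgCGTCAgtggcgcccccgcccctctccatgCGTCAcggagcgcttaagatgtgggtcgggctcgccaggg
Nr4a3: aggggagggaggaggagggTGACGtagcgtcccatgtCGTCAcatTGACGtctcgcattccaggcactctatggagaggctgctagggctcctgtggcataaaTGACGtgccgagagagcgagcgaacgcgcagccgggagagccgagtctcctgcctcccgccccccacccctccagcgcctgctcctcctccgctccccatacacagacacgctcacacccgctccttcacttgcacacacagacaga
Ier3: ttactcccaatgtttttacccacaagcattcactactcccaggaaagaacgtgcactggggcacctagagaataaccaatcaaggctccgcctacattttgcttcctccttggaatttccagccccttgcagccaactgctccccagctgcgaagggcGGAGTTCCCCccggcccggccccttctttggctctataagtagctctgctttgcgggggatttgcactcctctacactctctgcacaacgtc

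The 2 arrays showed Egr1, Egr2 and Ier3 at least 2-fold higher with celastrol, Ier2 just under that line, Ier5 and Myc higher by less, and the Nr4a genes and Egr3 close to their DMSO values. A gene counted as detected when either array exceeded 5.72 on the log2 scale, the 95th percentile of 1212 probe sets of the odorant and pheromone receptor families, taken as genes silent in fibroblasts. By that limit 9 of the 10 genes were detected and Nr4a3 was not. Of the 9, celastrol gave at least 2-fold higher values for 3 and at least 2-fold lower values for 0, where 1.88% and 0.662% of the 13907 detected genes were. At 1.5-fold the count was 5 of 9, against 6.19% of detected genes. Their median log2 difference, celastrol minus DMSO, was 0.74, against -0.01 over all detected genes, and 8 of the 9 were above 0, against 48.1% of detected genes. A different value in whole cultures can mean another number of cells that express a gene or another amount of RNA per cell, and these cannot be told apart.

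**Figure D1:**
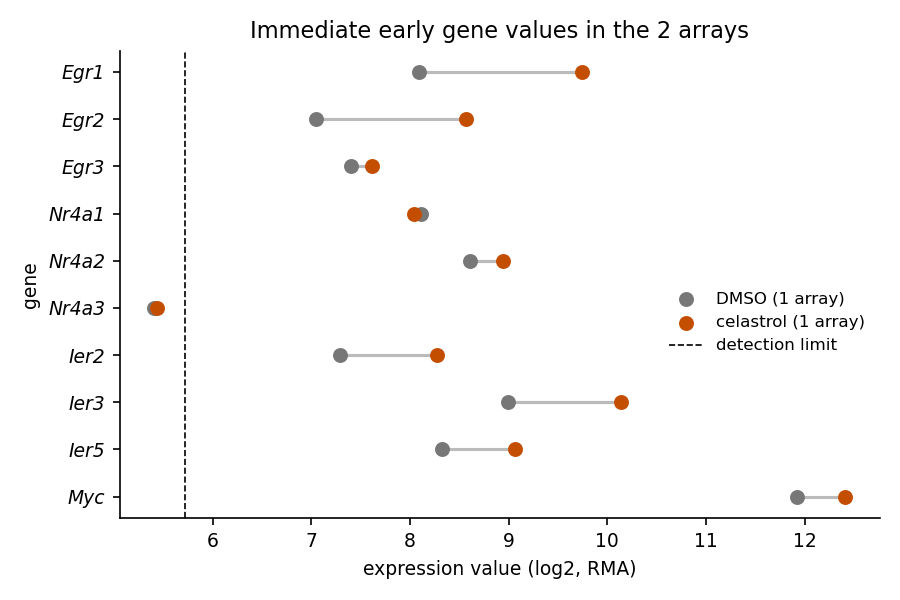
Expression value (log2, horizontal axis) of each of the 10 genes with DMSO (grey) and celastrol (orange), 1 array each, so no error is drawn; the dashed line is the detection limit of 5.72. Egr1, Egr2 and Ier3 have the widest gaps, Nr4a1 and Nr4a3 nearly none, and values of different genes cannot be ranked by level because they come from different probes.

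Egr1 and Egr2 stood apart from their relatives. Egr1, also called Krox24 or Zif268, was at 8.09 on the log2 scale with DMSO and 9.74 with celastrol, a 3.14-fold difference that ranked 53 from the top among 13907 detected genes. Egr2, or Krox20, best known from hindbrain and Schwann cell development, was at 7.05 and 8.57, 2.87-fold higher and rank 69.

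Egr3, on which the development of muscle spindles depends, was at 7.40 with DMSO and 7.61 with celastrol, a log2 difference of 0.22. Over the receptor probe sets, used as a scale of technical scatter within these arrays, the differences had an SD of 0.21 and a central 95% from -0.42 to 0.41, so the Egr3 difference lay inside that range and those of Egr1 and Egr2 far outside it. That scale comes from dim probe sets and contains no variation between cultures. Egr4, the remaining gene of the family, was at 6.71 and 6.65, a log2 difference of -0.06. The family therefore gave both high and near-zero differences, and the difference between its genes was not tested.

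The genes with the differences closest to that of Egr1, by the gap in log2 difference over the 2 arrays, were Tshz1 (1.66), C3ar1 (1.65), Serpinb9b (1.64) and Gem (1.63). Gem encodes a small GTPase and belongs itself to the immediate early genes. With 2 arrays such likeness rests on 1 difference per gene and says nothing of a shared pattern.

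NAB1 and NAB2 are corepressors that hold EGR proteins back, and their transcripts differed in opposite directions. Nab2 was at 10.40 with DMSO and at 11.03 with celastrol (1.55-fold), while Nab1 was at 10.23 and 9.99, a log2 difference of -0.24. Sp1, which competes for overlapping GC-rich sites, had a difference of 0.15 and Crebbp, a histone acetyltransferase that EGR1 recruits, one of -0.28. Of the 6 listed EGR partners, all detected, 2 were higher, 4 lower and 0 past 2-fold, with a median difference of -0.04.

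The Nr4a genes were the least different family. Nr4a1 was at 8.11 with DMSO and 8.04 with celastrol, a log2 difference of -0.08, and was the only detected gene of the 10 with a lower value with celastrol. Nr4a2 was at 8.61 and 8.94, 1.25-fold higher, which lay inside the receptor range. Nr4a3 was at 5.41 and 5.44, below the detection limit in both arrays, so no fold is given for it. The nearest differences to that of Nr4a1 were those of Derl2, Fam120b, Dusp14 and Slc30a2, all at -0.08 or within 0.01 of it, in the crowded middle of the distribution.

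NR4A1 and NR4A2 can pair with retinoid X receptors. Rxra and Rxrb had log2 differences of -0.03 each, and Rxrg was not detected. Ppard, a fatty acid-sensing nuclear receptor, had the highest value of that list at 1.74-fold, followed by the coactivator Ncoa3 at 1.24-fold. Nr2f2, or COUP-TFII, was lowest at -0.34, followed by the coactivator Ncoa2 at -0.23. Of 9 detected NR4A partners and related receptors, 4 were higher, 5 lower and 0 past 2-fold, with a median of -0.03.

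All 3 Ier genes were higher with celastrol. Ier3 went from 8.99 in the DMSO array to 10.14 in the celastrol array, 2.23-fold higher and rank 168. Ier2, also called Pip92, was at 7.29 and 8.27, 1.97-fold higher and rank 284, so it lay just below the 2-fold line and crossed it (log2 differences up to 1.03) where the arrays were quantile normalized or a lowess trend was removed. Ier5 was at 8.32 and 9.06, 1.67-fold higher and rank 553. All of these differences exceeded the central 95% of the receptor probe sets.

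Ier5l, a relative of Ier2 and Ier5, was at 9.15 with DMSO and 9.03 with celastrol, a difference of -0.12. Among 11 detected PP2A subunits, the phosphatase to which IER2 and IER5 bind, 5 were higher, 6 lower and 0 past 2-fold. Ppp2r5a (0.39) and Ppp2r2a (0.35), which encodes the B55-alpha subunit, had the highest differences and Ppp2r5b (-0.53) and Ppp2r5d (-0.36) the lowest.

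**Figure D2:**
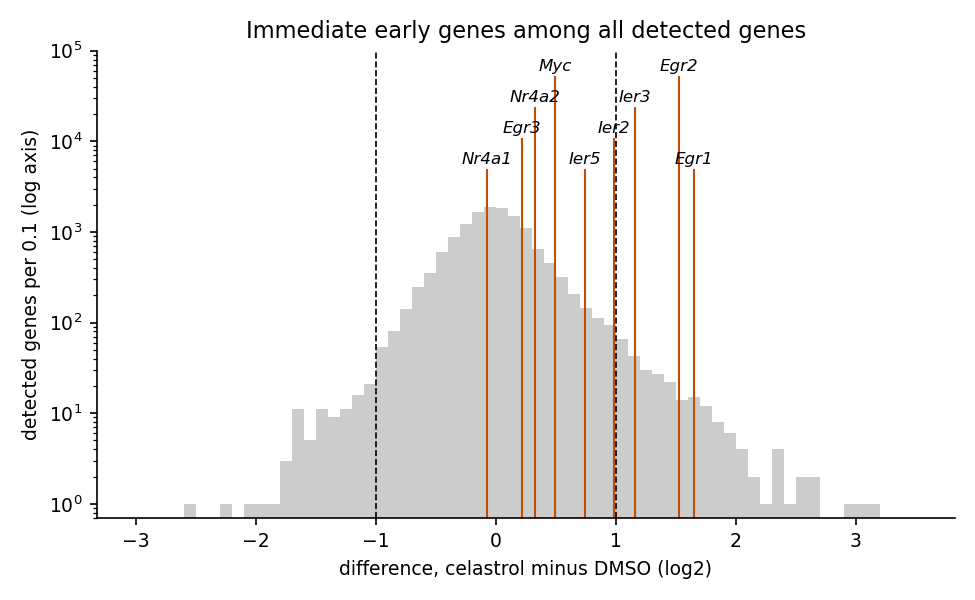
Number of detected genes per 0.1 of log2 difference, celastrol minus DMSO (grey bars, logarithmic vertical axis), with the 9 detected immediate early genes as orange lines, whose heights only separate the names; dashed lines mark 2-fold. Egr1, Egr2 and Ier3 lie right of the upper line, Ier2 just left of it, and Nr4a1 is in the middle.

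IER5 is encoded by a heat shock factor target gene and in turn promotes the activity of that factor on chaperone genes. All 14 detected genes of the heat shock factor list had higher values in the celastrol array, and 8 were past 2-fold. Over all detected genes these shares were 48.1% and 1.88%. The list's median was 1.09. Hspa1a, the inducible HSP70, was 5.01-fold higher, which its near-identical copy Hspa1b leaves uncertain, and Hspb1, or HSP27, was 4.46-fold higher. The lowest were Hspd1, the mitochondrial HSP60, at 1.47-fold and Hspa8, the constitutive HSC70, at 1.25-fold. The Ier5 value of 1.67-fold lay between the lowest and the highest values of that list. So did the values of Egr1, Egr2, Nr4a2, Ier2, Ier3 and Myc. A link of Ier5 to heat shock factor was not tested.

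Ier3 is usually counted among the genes that NF-kB activates, yet it differed in the direction opposite to most of them. Of 20 detected NF-kB feedback and inflammatory genes, 19 were lower with celastrol. For 12 of them the difference was at least 2-fold, where 0.662% of all detected genes were at least 2-fold lower. The median of the list was -1.31. Nos2, the inducible nitric oxide synthase, at -2.51 and Cxcl5, a neutrophil chemokine, at -2.07 were lowest, while Traf1 was at -0.19 and Tnfaip2 at 0.50, the exception. Ier3, at 1.16, lay above all 20.

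Myc went from 11.92 in the DMSO array to 12.41 in the celastrol array, 1.41-fold higher and rank 1166. Its relatives Mycn (6.37 and 6.52) and Mycl (6.90 and 6.65) had differences of 0.15 and -0.25. In the network around its partner MAX, 9 of 15 detected genes were higher and 6 lower, 0 past 2-fold, with a median of 0.10. Mxi1 (0.46), an antagonist that competes with MYC for MAX, and Mlx (0.45), a MAX-like factor, were highest. Mxd4 (-0.69) and Mxd3 (-0.46), antagonists of the same MXD family as Mxi1, were lowest.

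Genes that MYC activates showed no common direction. Of 26 detected, 11 were higher, 15 lower and 0 past 2-fold, with a median of -0.04. Odc1, the first enzyme of polyamine synthesis, was 1.49-fold higher, and Hspd1, also a heat shock gene, 1.47-fold higher. Cad, the pyrimidine synthesis enzyme, and Srm, spermidine synthase, had differences of -0.54 and -0.40. All 5 detected genes that MYC represses were higher, against 48.1% of all detected genes, and the median of the 5 was 0.43. At least 2-fold higher were 2 of them, against 1.88% of all detected genes. These 2 were Gadd45a (2.45-fold), a DNA damage gene and itself an immediate early gene, and Ndrg1 (2.37-fold), also induced by hypoxia and metals, and both respond to other stress signals. Cdkn1b (0.31) and Cdkn2b (0.06), inhibitors of cyclin-dependent kinases, had the lowest differences.

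Differences past 2-fold were rare among genes for the factors and kinases upstream of the early genes. They were also rare over all detected genes (1.88% higher and 0.662% lower). Of 16 detected genes for serum response factor, its partners and the CREB group, 10 were higher and 6 lower. Only 1 (6.25%) passed 2-fold, downward. That was Sik1, a kinase that restrains CREB coactivators and is itself a CREB target, at 10.12 with DMSO and 8.96 with celastrol. Srf itself followed with 9.87 and 8.90, a log2 difference of -0.97. Crem (0.71), which also encodes the cyclic AMP repressor ICER, and Mef2d (0.54) were highest. Of 17 detected genes of the MAP kinase cascades, 9 were higher and 8 lower, 0 past 2-fold. Map3k5, the stress kinase ASK1, at 0.77 and Map2k1, which encodes MEK1, at 0.52 were highest, and Mapk11 (-0.54) and Araf (-0.40) lowest. Transcript values do not give the activity of these kinases.

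Of 58 other immediate early genes, 45 were higher with celastrol, 21 (36.2%) past 2-fold, and 1 was at least 2-fold lower. Over all detected genes, 48.1% were higher, 1.88% past 2-fold, and 0.662% were at least 2-fold lower. The median of the 58 was 0.56. The share of the detected Egr, Nr4a, Ier and Myc genes past 2-fold was 33.3%, close to the share in that list, and the difference between the shares was not tested. Dusp4, a MAP kinase phosphatase, at 2.64 and Atf3, a stress-induced bZIP factor, at 2.10 had the highest differences. Ccn2, or connective tissue growth factor, at -1.43 and Irf1, an interferon and NF-kB responsive factor, at -0.95 had the lowest. Among factors that bind AU-rich elements, which many early transcripts carry, or shorten poly(A) tails, 11 of 20 were higher and 9 lower, with a median of 0.01. That list mixes factors that destabilise transcripts with others, such as Elavl1 (HuR, at 0.17), that stabilise them. Zfp36, or tristetraprolin, itself an early gene, was 2.01-fold higher and Btg1, an antiproliferative gene, 1.55-fold higher, while Parn (-0.41) and Cnot6 (-0.28), both deadenylases, were lowest.

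**Figure D3:**
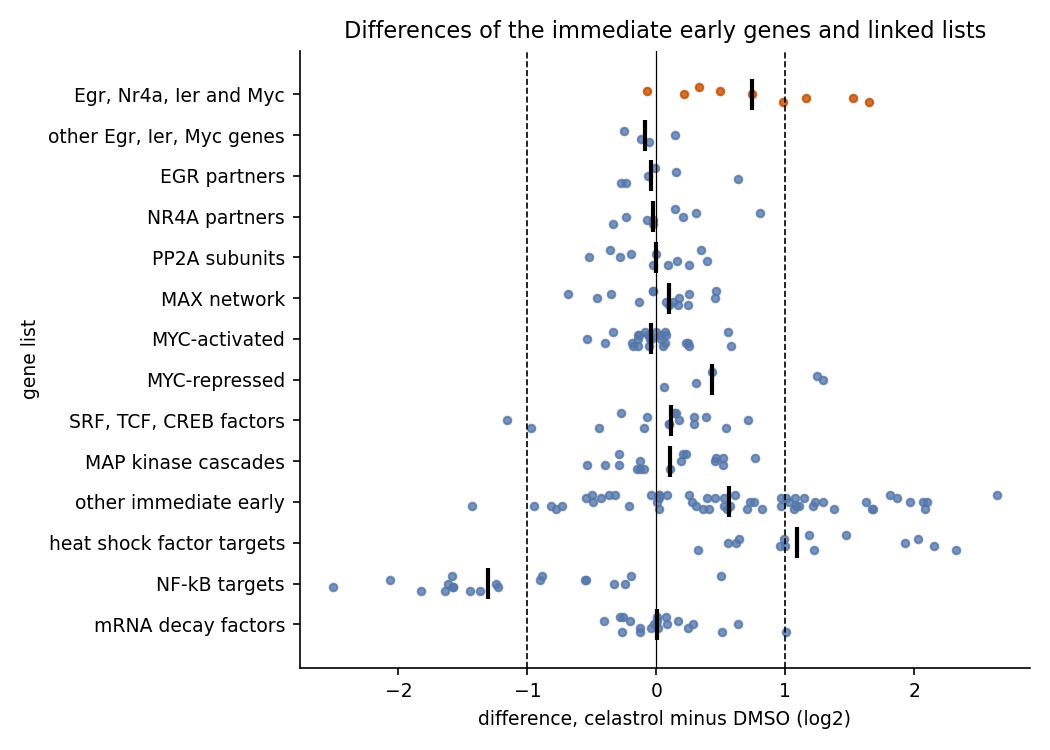
Log2 difference, celastrol minus DMSO, of every detected gene (points, spread vertically for legibility) in the immediate early set (orange) and 13 linked lists (blue); black bars are medians and dashed lines mark 2-fold. The median of the orange set is 0.74, that of heat shock factor targets 1.09 and that of NF-kB targets -1.31, and most other lists lie near 0.

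In the promoter windows, the CArG box and the CRE core were distributed unevenly over the 6 genes that had windows. Both strands were searched. A CArG box was found in 4 of the 5 Egr2 windows and in no window of the other 5 genes, where 1.63% of all 32851 windows held at least 1. Of these 4 windows, 3 overlap and share the same box, and the remaining window, which does not overlap them, holds a separate box upstream, also from 72 to 63 bases before its own start. The box printed above for Egr2 lay from 72 to 63 bases before the start, between CRE cores that began 111 and 55 bases before it. Each of Nr4a1, Nr4a2 and Nr4a3 held 4 CRE cores, where 20.8% of windows held at least 1 and 0.231% at least 4. Egr2, with 2 cores in 3 of its windows, is set against 5.01% of windows with at least 2. Nr4a1 and Nr4a2 had the smallest differences among the detected genes of the 6, and Nr4a3 was not detected. This is a description of 3 genes only, and a link between CRE cores and differences was not tested.

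The NF-kB site of Ier3 lay from 92 to 83 bases before its start, and 4.51% of windows held such a site. A further NF-kB match in Nr4a1 spanned its start, from 3 bases before it. The ETS core CCGGAA, found in 14.9% of windows, had 3 matches in 1 Egr2 window and 1 in Nr4a1, and the EGR core GTGGGCG, in 7.97% of windows, had 1 match in another Egr2 window. The GC box GGGCGG, in 35.7% of windows, was found in all 6 genes and was the only motif matched in Ier5. The antioxidant response element TGACNNNGC (12.4% of windows), whose first letters can overlap a CRE core, matched once each in Nr4a2 and Nr4a3 and in 3 Egr2 windows, overlapping a CRE core in each case. The letters of the TATA box, TATAAA (13.6%), matched in Nr4a2 on the opposite strand, from 164 to 159 bases before the start. The E-box CACGTG (7.15%) matched in Egr2. The CRE palindrome TGACGTCA (1.79%), the NR4A element AAAGGTCA (1.51%), the heat shock element GAANNTTC (7.86%) and the C/EBP-ATF element TGATGNAA (3.97%) were not among the letters of any of these windows.

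**Figure D4:**
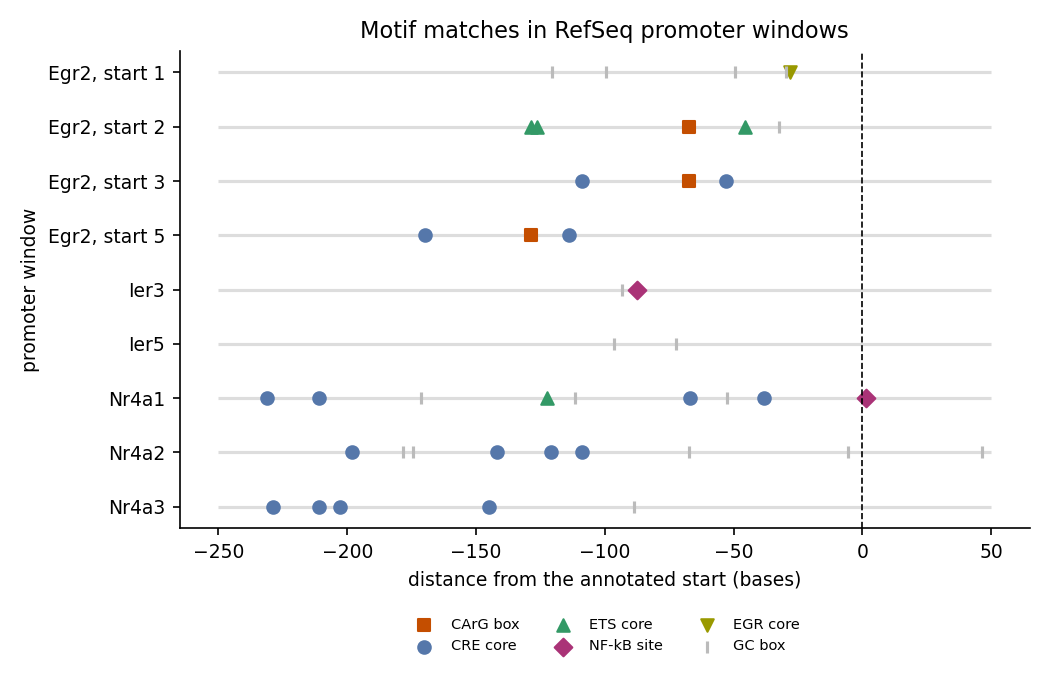
Positions of motif matches (symbols, both strands) relative to the annotated start (0, dashed line; horizontal axis in bases) in promoter windows of the 6 genes, with 4 of the 5 Egr2 starts drawn because the remaining start lies 1 base from start 3. Egr2 alone shows the CArG box, and each Nr4a gene shows 4 CRE cores.

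The cultures carried fibroblast transcripts in both arrays, with 12 of 14 markers detected and Fap and Lum below the limit. The summed linear value of all 14 markers was 46318 with DMSO and 42717 with celastrol. This sum and those below include markers under the detection limit. Vim was at 13.85 and 13.95, Fn1 at 13.42 and 13.47 and Col1a1 at 12.16 and 11.69, all above the detection limit. Pdgfra (0.27) had the highest difference, and S100a4 (-0.88) and Postn (-0.61) the lowest. Macrophages also express Egr and Nr4a genes, and 4 of 9 macrophage and leukocyte markers were detected. The sum over all 9 was 533 and 847. Cd68, a lysosomal protein, was 2.76-fold higher, Cd14 1.63-fold higher, Csf1r was at 5.99 and 6.25, and Cd3e at 6.15 and 6.35, whereas Ptprc, Adgre1, Itgam, Lyz2 and Aif1 were below the limit in both arrays. The sums were 542 and 566 for endothelial markers (5 of 8 detected, Cdh5 at 0.15, Cldn5 at 0.19, Egfl7 at -0.18), and 460 and 459 for epithelial ones (6 of 7 detected, Krt8 at -0.04, Krt14 at -0.31, Krt5 at 0.22). They were 1483 and 1868 for neural, muscle and fat markers (7 of 10 detected, with Nes at 0.23, Tnnt2 at 0.87, Fabp4 at 0.41 and Map2 at -0.41). The part of other cell types in the early gene values was not tested.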

How the data were processed

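RNA of each group was hybridised to 1 Affymetrix mouse array (2 in all). The authors summarised the deposited values with RMA on the log2 scale (background correction, quantile normalization and a summary per probe set), per the submitters' processing notes; version and settings: not given in the sources used here. Base 2 was inferred from the range, 2.73 to 14.52 with medians of 6.33 and 6.35. RMA shrinks differences near background, so folds of dim genes are understated. The number of arrays limits the precision.

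Of 35556 probe sets, GEO's platform annotation named 1 gene for 21797, several for 1613 and none for 12146; only the first kind was used. Entrez identifiers of 21706 matched a GRCm38.p6 gene table, used for names. Folds are 2 raised to the log2 difference, and called means past 2-fold, with no test. Genes were named by rule: the 10 genes, up to 2 detected genes at each end of 18 further lists, the 3 markers of each cell type with the highest mean value (a naming rule, no ranking of levels), and the nearest differences to the highest and lowest member (without provisional symbols, odorant and pheromone receptors or small RNAs). The members and lists were chosen with earlier results of these data known, and many list genes were in lists examined before, so no count here is independent support. Rxra, Rxrb, Rxrg, Elavl1, the markers below the detection limit and the genes of the closing observations fall outside the rule and were named after their values were seen. Motifs were searched as letter patterns in RefSeq promoter windows. The counting step was run on simulated data, with known shifts well past the 2-fold line put on all probe sets of a gene. Such a run could not test the choice of probe set or the detection limit. Software was Python 3.11.15 with numpy 2.4.6, pandas 2.3.3, statsmodels 0.14.6 and matplotlib 3.10.9.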

Additional observations from a re-analysis of the deposited data

How the results depend on the processing

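The 10 alternatives were 2 other detection limits, 3 other choices of probe sets, 3 other scalings and 2 other fold thresholds, all planned. No paired analysis was possible because each group is 1 array. Each of the 80 recalculated member differences stayed within 1 SD of the receptor scatter of its main value. Only the 3 other scalings could change these differences, because each gene had 1 probe set and a detection limit alters no difference. Under the other detection limits and probe set choices they repeat the main value by construction. The median of the members ran from 0.62 to 0.81. The members' 2-fold count was 4 in place of 3, through Ier2, with quantile normalization or the lowess trend. By construction it was 5 at 1.5-fold and 1 at 3-fold. Of 144 list medians, 4 moved by more than that SD. The macrophage list became 0.71 with the limit at the median of all probe sets, 0.20 with no limit and 0.26 with probe sets naming several genes, and that last choice gave 0.84 for genes MYC represses. Near-zero medians that were not called changed sign for the NR4A partner (-0.03 to 0.04), PP2A (-0.03 to 0.09) and epithelial (-0.04 to 0.01) lists, and the difference of Nr4a3, which was not detected, ran from -0.06 to 0.04.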

Other observations

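Serum response factor works with ternary complex factors at early genes such as the Egr genes, and with the actin-sensing coactivators MRTF-A and MRTF-B at cytoskeletal genes. The MRTF branch was looked at in a list chosen after values of these data were seen, so its counts are a description. The list holds mostly cytoskeletal genes and Srf itself (-0.97), which is described above among the upstream factors. Of its 17 genes, all detected, 13 were lower with celastrol and 4 higher, where 48.1% of all detected genes were higher. Only 1 passed 2-fold, downward, where 0.662% of all detected genes did. The median log2 difference was -0.22, against -0.01 over all detected genes. A difference between the MRTF branch and the early genes was not tested. Myl9, a myosin light chain, was 2.60-fold lower, and Cnn1, calponin (7.92 with DMSO and 6.93 with celastrol), and Tagln, transgelin (8.16 and 7.20), were 1.99-fold and 1.96-fold lower. Fhl2, a LIM domain cofactor, at 0.50 and Itga5, an integrin subunit, at 0.29 had the highest differences. The ternary complex factor genes Elk1 (0.10), Elk3 (0.17) and Elk4 (-0.07) and the coactivator genes Mrtfa (-0.28) and Mrtfb (-0.45) differed by less than 2-fold. Within the early genes themselves, Fos had nearly the same value in both arrays (7.18 with DMSO and 7.19 with celastrol). It is usually induced together with Egr1, but both arrays were taken at 7 h and give no earlier value. Of the other Fos and Jun genes, Fosl1 (1.23), Fosb (0.57), Fosl2 (0.39) and Junb (0.36) were higher. Jun (-0.32) and Jund (-0.21) were lower.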
